A study of Mus musculus with 6 samples.

Results

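The genes described are *Trp53* and a set of its known targets, chosen by gene symbol for their place in this pathway. They are *Trp53*, *Mdm2*, *Sfn*, *Ccng1*, *Bax*, *Perp*, *Aen*, *Trp53inp1*, *Rrm2b* and *Sesn1*, which make up 10 of the 15280 genes in the RNA-Seq table.

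The p53 protein, encoded by *Trp53*, is a transcription factor that the ubiquitin ligase *Mdm2* keeps scarce in unstressed cells. DNA damage and other stress stabilize the protein, which then switches on genes that stop the cell cycle, start apoptosis, or serve DNA repair and the removal of reactive oxygen. In the mammary gland p53 is known as a tumor suppressor, and because its control acts largely on the protein, the level of its own transcript need not follow its activity.

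The RNA-Seq data are 6 libraries from 3 female mice of the transgenic BK5.ATF3 strain. Each mouse gave a library of its mammary tumor (T11035, T11640 and T9232) and a library of normal mammary gland next to it (M11035, M11640 and M9232), with the same number for the same mouse, and values are given in this order. In these mice the bovine keratin 5 promoter drives ATF3, a transcription factor of the stress response, in basal epithelial cells. Each female had borne 1 litter. Age was 6 to 12 months when the tumors developed, and tumor length at tissue collection was 1.5 cm. Both tissues carried the transgene, and no wild-type gland was used here, so the comparison is of tumor with adjacent gland and not of genotypes.

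Expression is given as CPM, the fragments on a gene scaled to the effective size of its library. The libraries held from 4750989 (M11035) to 7806908 (T11640) fragments on genes, and 3 fragments corresponded to between 0.393 and 0.610 CPM. The libraries were made from amplified cDNA, so this floor covers counting error only. The log2 fold change is tumor minus gland on the log2(CPM + 0.5) scale, which understates the change of genes with few fragments. Genes were called differentially expressed (DEGs) where a two-sided limma test over all 15280 genes gave an adjusted p no higher than 0.05 with a log2 fold change of 1 or more in either direction. An exact permutation test of 3 against 3 libraries cannot give a p below 0.1, so the adjusted p-values quoted are those of limma.

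The labelled tissues were first compared with cell type markers. In the glands the summed adipocyte markers stood at 6096, 7873 and 4019 CPM, against 162, 202 and 135 CPM in the tumors, and 8 of 8 were downregulated DEGs. *Fabp4*, the adipocyte fatty acid binding protein, was the most abundant of them. The epithelial markers summed to 236, 308 and 534 CPM in the glands and to 2140, 2610 and 2772 CPM in the tumors. Of these, 7 of 8 were upregulated DEGs, the exception being *Epcam*. *Epcam* was the most abundant of them in the glands (mean 151 CPM), and *Krt5*, a basal keratin, in the tumors (mean 986 CPM). Epithelial transcripts were therefore present in both tissues, on a background rich in fat cell transcripts in the glands.

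Markers of keratinized, squamous epithelium were also higher in the tumors. The squamous list summed to 15.2, 15.7 and 17 CPM in the glands and to 2414, 3820 and 3602 CPM in the tumors, with 8 of 8 genes upregulated. *Sbsn* was the most abundant of them in the glands and *Krt10* in the tumors. *Lor* was listed at 0 in all 3 glands, and *Ivl* at 0 in gland M11035. Cell cycle transcripts, led by *Mki67*, summed to 553, 294 and 515 CPM in the glands and to 1424, 1150 and 803 CPM in the tumors, with 9 of 10 upregulated. In such bulk samples, fewer cells of a type and less RNA per cell cannot be told apart.

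Other cell types also differed. B cell markers summed to 684, 283 and 452 CPM in the glands and to 8.75, 10.4 and 8.54 CPM in the tumors, with 5 of 5 downregulated and *Cr2* the most abundant. T cell markers, with *Cd4* the most abundant, summed to 421, 166 and 309 CPM in the glands and to 25.3, 27.9 and 41.1 CPM in the tumors, with 6 of 6 downregulated. Neutrophil markers, led by *S100a9*, went the other way, from 161, 72.3 and 112 CPM to 818, 1039 and 1409 CPM, with 4 of 5 upregulated. Most of the neutrophil sum was *S100a8* and *S100a9* (means of 197 and 683 CPM in the tumors), and *Retnlg* went the other way, from a mean of 11.3 to 6.75 CPM, without passing the test (log2 fold change -0.78, adjusted p = 0.204, by limma). Lymphocyte markers were thus lower in the tumors, and 4 of the 5 neutrophil markers were higher.

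Among the remaining lists, macrophage markers, led by *Mrc1*, summed to 277, 713 and 894 CPM in the glands and to 581, 810 and 859 CPM in the tumors, with 1 of 5 upregulated. Fibroblast markers, led by *Dcn* in the glands and by *Col1a2* in the tumors, summed to 645, 2409 and 1278 CPM and to 5516, 5616 and 5904 CPM, with 2 of 5 upregulated. Endothelial markers, led by *Pecam1*, summed to 347, 460 and 341 CPM and to 181, 221 and 263 CPM, with 3 of 5 downregulated. These 3 lists were mixed, since part of each did not pass the test. Hormone-sensing luminal markers, led by *Prlr*, summed to 324, 461 and 511 CPM in the glands and to 138, 74.4 and 51.4 CPM in the tumors, with 4 of 5 downregulated and 1 upregulated. Contractile myoepithelial markers, led by *Myh11* in the glands and by *Acta2* in the tumors, summed to 337, 609 and 722 CPM and to 164, 205 and 206 CPM, with 3 of 5 downregulated. The contractile list was mixed too, and *Acta2* was among its genes that did not pass (log2 fold change 0.49, adjusted p = 0.446, by limma).

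The glands M11035 and M11640 stood apart in skeletal muscle transcripts. The muscle list summed to 3679 and 1455 CPM in these glands, where *Myh4* was the most abundant of its genes, against 4.24 CPM in gland M9232. In the tumors, where *Tnnt3* was the most abundant, it summed to 13.4, 7.08 and 13.8 CPM, and 1 of 5 genes was a downregulated DEG. *Acta1* was listed at 0 in gland M9232, *Myh4* in tumor T11640, and *Ckm* in both of these libraries.

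**Figure D1:**
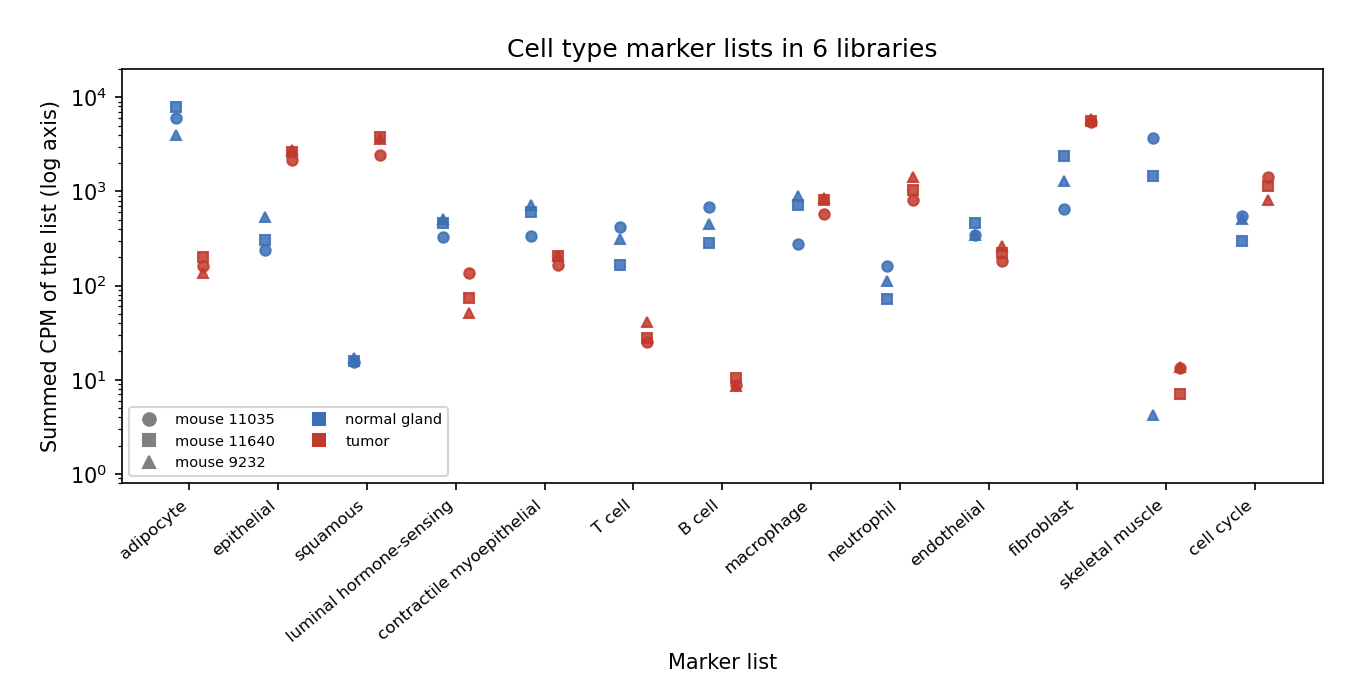
Summed CPM (log axis) of each cell type marker list in the 3 normal glands (blue) and 3 tumors (red), with 1 symbol per mouse. Adipocyte and lymphocyte lists sit lower and epithelial and squamous lists higher in the tumors, and gland M9232, at 4.24 CPM, lies far below the other glands in the skeletal muscle list.

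The 10 genes did not move as a block. Of the 10, 5 were upregulated DEGs (*Mdm2*, *Sfn*, *Bax*, *Perp* and *Aen*) and 1 was downregulated (*Rrm2b*). That is 60% called, where 28.2% of all genes were called, 14.5% as higher and 13.7% as lower. The genes were chosen with earlier results known, so the difference between these shares is a description only. *Sesn1* passed the adjusted p but not the fold change, and *Trp53*, *Ccng1* and *Trp53inp1* passed neither with all 6 libraries. For 7 of the 10 genes the tumor and gland libraries did not overlap, as for 54.0% of all genes. The direction was the same in all 3 mice for 9 of the 10, with *Ccng1* the exception. The share of all genes with 1 direction in all 3 mice was not taken, so that count has no baseline. The median log2 fold change was 0.72, against -0.0028 over all genes.

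**Figure D2:**
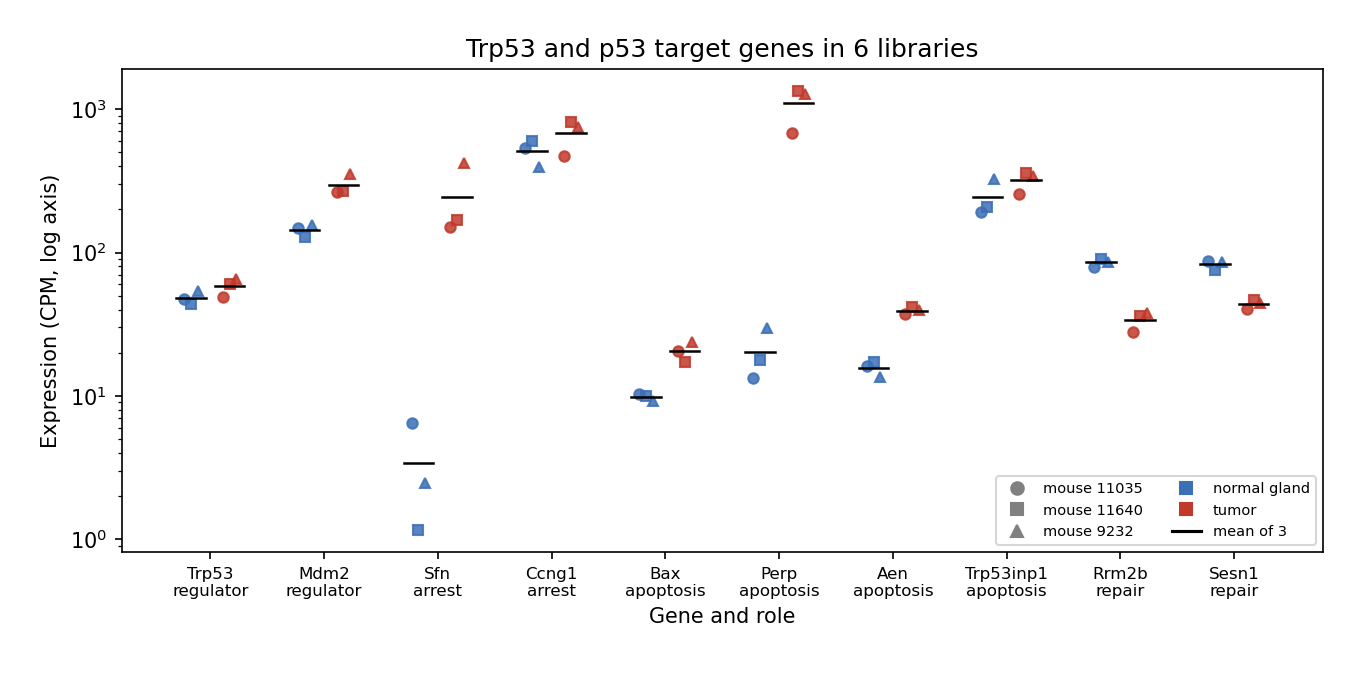
Expression (CPM, log axis) of *Trp53* and its target genes in the 3 normal glands (blue) and 3 tumors (red), with 1 symbol per mouse and a bar at each mean. *Sfn* and *Perp* show the widest gaps, *Trp53*, *Ccng1* and *Trp53inp1* overlap between the tissues, and *Rrm2b* and *Sesn1* are lower in the tumors.

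*Trp53* itself (chr11:69393861-69405375 on mm9, 7 exons) was measured at 47.2, 43.8 and 53.9 CPM in the glands, and at 48.6, 60.2 and 65.8 CPM in the tumors. Tumor T11035 lay within the range of the glands, so the tissues overlapped, although the tumor was the higher of the pair in 3 of 3 mice. The mean was 48.3 ± 5.15 CPM (SD, n = 3) in the glands and 58.2 ± 8.78 CPM (SD, n = 3) in the tumors. The log2 fold change of 0.26 did not pass the test (adjusted p = 0.258, by limma), and its 95% interval ran from -0.13 to 0.65. It was 0.17 without tumor T9232, 0.38 without tumor T11035 and 0.098 without both glands that held muscle transcripts, and it passed the test in none of these. With all 6 libraries, a change of the *Trp53* transcript by 2-fold in either direction lies outside that interval.

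*Mdm2* (chr10:117125944-117147814) encodes the ligase that marks p53 for destruction and is itself switched on by p53, which closes a feedback loop. It was measured at 148, 128 and 155 CPM in the glands and at 263, 268 and 353 CPM in the tumors. Every tumor lay above every gland, and tumor T9232 was the highest. Its log2 fold change was 1.03 (standard error, SE, 0.16, adjusted p = 0.00124, by limma), close to the threshold of 1. It dropped below 1 with upper-quartile scaling (0.96), without gland M11640 (0.95), without tumor T9232 (0.89) and without both glands that held muscle transcripts (0.91). The direction was kept in all of these, but the call as a DEG was not.

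Among the arrest genes, *Sfn* (chr4:133156471-133158083, a gene of 1 exon) encodes stratifin, an epithelial protein that holds the mitotic kinase complex in the cytoplasm. *Sfn* stood at 6.51, 1.16 and 2.46 CPM in the glands, which were 32, 7 and 18 fragments, and at 150, 168 and 419 CPM in the tumors. The gaps between libraries of the same tissue were wide, with gland M11035 and tumor T9232 the highest of their groups, but the lowest tumor was 23.0-fold above the highest gland. The log2 fold change of 6.08 (SE 0.54, adjusted p = 5.83e-05, by limma) ranked 91 from the top of the 15280 genes. The glands' few fragments limit the precision of that fold change, which ranged from 5.59 to 6.63 over the alternative settings.

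*Ccng1* (chr11:40562054-40568813) encodes a cyclin that brings a phosphatase to *Mdm2*. It was abundant in every library, at 539, 604 and 399 CPM in the glands and at 474, 818 and 747 CPM in the tumors. The tissues overlapped, because T11035 lay below M11035 while the other 2 tumors lay above all glands. The log2 difference within a mouse was -0.19, 0.44 and 0.90 from M11035 to T11035, M11640 to T11640 and M9232 to T9232. Across mice the log2 fold change was 0.38 (95% interval -0.15 to 0.92, adjusted p = 0.225, by limma). The value rested on single libraries: it was 0.62 without T11035 (adjusted p = 0.0491, by limma), 0.21 without M9232, 0.23 without T11640 and 0.73 without both glands that held muscle transcripts, with adjusted p-values from 0.0491 to 0.545 over the alternative settings.

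The apoptosis genes differed in size of change. *Perp* (chr10:18564877-18576879) encodes a membrane protein that acts in apoptosis and in the desmosomes of stratified epithelia, and it is also known as a target of the p53 relative p63. *Perp* was measured at 13.2, 17.7 and 29.5 CPM in the glands and at 682, 1343 and 1280 CPM in the tumors. Gland M9232 was the highest gland and tumor T11035 the lowest tumor, and the space between them was 23.1-fold. This gave a log2 fold change of 5.75 (SE 0.33, adjusted p = 6.97e-06, by limma), which ranged from 5.13 without both glands that held muscle transcripts to 6.07 without T11035.

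*Sfn* and *Perp* are transcribed in epithelial cells, and the epithelial and squamous lists were also higher in the tumors. Within a tissue the orders were only partly shared. Gland M11035 was the highest gland in *Sfn* (6.51 CPM) and the lowest in the epithelial list (236 CPM), while *Perp* had the order of that list in the glands. In the tumors *Sfn* had the order of the list and *Perp* did not. The epithelial list rose from a mean of 359 ± 156 CPM to 2508 ± 328 CPM (SD, n = 3 each), and the squamous list from 16 ± 0.889 CPM to 3279 ± 757 CPM (SD, n = 3 each). Most of the epithelial sum in the tumors was *Krt5* and *Krt14* (means of 986 and 585 CPM). *Epcam* went from a mean of 151 to 211 CPM without passing the test (log2 fold change 0.56, adjusted p = 0.124, by limma). The part of either list in the rise of *Sfn* and *Perp* was not tested.

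*Bax* (chr7:52717065-52722268) encodes the protein that permeabilizes the outer mitochondrial membrane. It stood at 10.4, 9.91 and 9.16 CPM in the glands and at 20.7, 17.3 and 23.7 CPM in the tumors. The glands lay close together and below all tumors. On the log2 scale the fold change was 1.02 (SE 0.20, adjusted p = 0.00352, by limma), which is as near to the threshold as that of *Mdm2*. The call was lost with a pseudocount of 1 (0.99), with upper-quartile scaling (0.96), without gland M9232 (0.97) and without tumor T9232 (0.91).

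*Aen* (chr7:86040740-86056095) encodes a nuclease that degrades DNA and RNA in dying cells. It was measured at 16.3, 17.2 and 13.5 CPM in the glands and at 37.0, 41.4 and 39.4 CPM in the tumors. The tumors were all above the glands and varied little among themselves, with a coefficient of variation of 5.59%. *Aen* had a log2 fold change of 1.31 (SE 0.17, adjusted p = 4.61e-04, by limma), and the call was kept under all 16 alternative settings.

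*Trp53inp1* (chr4:11083578-11101526) encodes a stress protein that acts with p53 in cell death and in autophagy. It stood at 192, 210 and 327 CPM in the glands and at 256, 359 and 340 CPM in the tumors. Tumor T11035 lay below gland M9232, so the tissues overlapped, although the tumor was higher in 3 of 3 mice. The log2 fold change was 0.42 (95% interval -0.09 to 0.93, adjusted p = 0.171, by limma). It was 0.27 without M11035. Without M9232, the highest gland, it was 0.65 and passed the adjusted p (0.0271, by limma) but not the fold change. Without both glands that held muscle transcripts, which leaves M9232 as the only gland, it was -0.05, and adjusted p-values ran from 0.0271 to 0.901 over the alternative settings.

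Both genes of repair and antioxidant defense were lower in the tumors. *Rrm2b* (chr15:37853707-37891073) encodes the p53-inducible small subunit of ribonucleotide reductase, which supplies DNA precursors for repair and for mitochondrial DNA outside S phase. It was measured at 79.9, 90.2 and 86.3 CPM in the glands and at 27.9, 35.9 and 37.6 CPM in the tumors. All tumors lay below all glands, and the lowest gland was 2.12-fold above the highest tumor. Its log2 fold change was -1.33 (SE 0.17, adjusted p = 3.44e-04, by limma), and the call was kept under all 16 alternative settings. *Rrm2*, the small subunit made in S phase and a gene of the cell cycle list, is named after its values had been seen. It went from 25.6, 12.7 and 16.7 CPM in the glands to 70.2, 73.5 and 46.5 CPM in the tumors (log2 fold change 1.79, adjusted p = 0.00127, by limma).

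*Sesn1* (chr10:41530380-41628230) encodes a sestrin, which restrains growth signaling and oxidative damage. It stood at 86.8, 75.0 and 86.2 CPM in the glands and at 40.6, 46.7 and 44.2 CPM in the tumors. Every tumor lay below every gland, and the spread within each tissue was small. *Sesn1* had a log2 fold change of -0.91 (SE 0.15, 95% interval -1.24 to -0.57, adjusted p = 0.00142, by limma), which passed the adjusted p but not the fold change. Adipocyte markers were also lower in the tumors, as listed above, and their part in the lower *Rrm2b* and *Sesn1* was not tested. With M9232, the gland low in muscle transcripts, as the only gland kept, the log2 fold changes of *Rrm2b* and *Sesn1* were -1.35 and -0.97. That gland held adipocyte markers at 4019 CPM, and the part of muscle transcripts was not tested either.

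Levels of different genes were compared as CPM per kilobase of annotated exon. On this scale *Ccng1* was the highest of the 10 genes in the glands, at 146 ± 29.9 (SD, n = 3), above *Trp53inp1* at 37.5 ± 11.3, *Mdm2* at 28.3 ± 2.70 and *Sesn1* at 24.8 ± 2.0. *Rrm2b* followed at 13.3 ± 0.807, *Trp53* at 11.9 ± 1.27, *Perp* at 10.6 ± 4.44 and *Bax* at 7.33 ± 0.454, and *Aen* at 2.75 ± 0.333 and *Sfn* at 2.09 ± 1.73 were the lowest. Between neighbours in this order the libraries overlapped except from *Ccng1* to *Trp53inp1*, from *Sesn1* to *Rrm2b* and from *Bax* to *Aen*. In the tumors *Perp* led, at 580 ± 192 CPM per kilobase (SD, n = 3), followed by *Ccng1* at 193 ± 51.7, *Sfn* at 152 ± 93.1, *Mdm2* at 58.1 ± 9.95 and *Trp53inp1* at 49.2 ± 8.45. Below them came *Bax* at 15.3 ± 2.38, *Trp53* at 14.4 ± 2.17, *Sesn1* at 13.2 ± 0.921, *Aen* at 6.91 ± 0.386 and *Rrm2b* at 5.25 ± 0.805. The overlapping neighbours in the tumors were *Ccng1* and *Sfn*, *Mdm2* and *Trp53inp1*, *Bax* and *Trp53*, and *Trp53* and *Sesn1*. The exon length takes in every annotated isoform, so these levels are lower than those of a single, shorter transcript would be.

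Nearly the whole *Rrm2b* transcript and parts of the *Sfn* and *Aen* transcripts have close copies elsewhere in the genome, where fragments could have been divided or lost in the counting. The *Sfn* transcript matched chr8:74047415-74048729 at 96% identity, as well as shorter or more distant stretches on other chromosomes. For *Aen*, 902 aligned bases matched chr4:14158330-14159229 at 99.6% identity. The *Rrm2b* transcript of 4561 bases matched chr13:3352037-3356632 over 4526 aligned bases at 94.1% identity. The levels of these 3 genes, and their differences between the tissues, are uncertain to that extent. The *Trp53* transcript of 1867 bases has a more distant match, chr17:54558922-54560561, over 1792 aligned bases at 87.6% identity. Its level could be uncertain in the same way.

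The genes whose profile over the 6 libraries came closest to that of *Trp53* were *Fam117b*, *Rer1* and *Actr1a*. Their root mean square differences from the centred *Trp53* profile were 0.0466, 0.0526 and 0.0557 on the log2 scale, against a median of 0.451 over the 14711 other genes averaging 1 CPM or more. Like *Trp53*, these 3 genes overlapped between the tissues, and no other of the 10 genes was among them.

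The wider pathway was taken from lists of 69 further genes, of which 64 were in the table. Of the 64, 20 were upregulated and 1 was downregulated, which is 31.2% higher and 1.56% lower, where 14.5% of all genes were called higher and 13.7% lower. In either direction 32.8% were called, against 28.2% of all genes, so the lists differed from all genes in direction more than in the number called. These lists too were chosen with earlier results known, and the shares are a description only. Their median log2 fold change was 0.40, against -0.0028 over all genes. No values are given for *Cdkn2a*, *Rprm*, *Bbc3*, *Sco2* and *Gdf15*, which have no row in the table used.

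Among the relatives and activators of p53, 3 of 10 were upregulated and 1 was downregulated. *Trp63*, the p53 relative that maintains basal and stratified epithelium, stood at 21.6, 46.6 and 37.2 CPM in the glands and at 467, 363 and 278 CPM in the tumors. Its log2 fold change was 3.41 (SE 0.29, adjusted p = 4.73e-05, by limma). *Trp73*, the other relative, was scarce, at 0.610, 0 and 0.821 CPM in the glands and 3.72, 3.67 and 3.15 CPM in the tumors (log2 fold change 2.15, adjusted p = 0.00374, by limma). The gland values of *Trp73* were near the floor of 3 fragments, so its log2 fold change depends on the pseudocount (3.16 with 0.1 and 1.65 with 1) and on the gland listed at 0 (1.73 without M11640), and it was lowest, at 1.60, without both glands that held muscle transcripts. *Hipk2*, a kinase that activates p53 for apoptosis, was the downregulated gene, at a log2 fold change of -1.31 (adjusted p = 0.00154, by limma). It came to -0.96 without both glands that held muscle transcripts. *Atm*, named after its values had been seen, was also lower in 3 of 3 mice (log2 fold change -0.615, adjusted p = 0.0176, by limma). It passed the adjusted p but not the fold change. The remaining upregulated gene, *Chek1*, a checkpoint kinase named after its values had been seen, had a log2 fold change of 1.56 and was not called without both glands that held muscle transcripts (1.57, adjusted p = 0.0833, by limma).

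Of the 6 inhibitors other than *Mdm2*, 0 were called by limma, edgeR or DESeq2, and 2 had an unadjusted p under 0.05 in each with all 6 libraries. That number was 0 without M11035, M9232, T11640 or T9232. With the mouse as a block, 1 of the 6 passed the adjusted p but not the fold change by limma, and 0 did by edgeR. *Mdm4*, the partner of *Mdm2*, stood at 408, 320 and 383 CPM in the glands and at 365, 327 and 268 CPM in the tumors (log2 fold change -0.22, 95% interval -0.59 to 0.15). Its value was -0.095 without tumor T9232, -0.14 without gland M11035 and -0.32 without gland M11640. *Ppm1d*, a phosphatase that turns p53 signaling off, had the largest log2 fold change of this list, 0.48 (95% interval 0.05 to 0.92, adjusted p = 0.0719, by limma). Without tumor T11035 it was 0.62 and passed the adjusted p (0.0431, by limma) but not the fold change, and adjusted p-values ran from 0.0431 to 0.243 over the alternative settings.

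Targets that arrest the cell cycle were upregulated in 6 of 9 cases, with a median log2 fold change of 2.06. *Cdkn1a*, the cyclin-dependent kinase inhibitor best known as a p53 target, stood at 14.8, 12.4 and 7.66 CPM in the glands and at 99.4, 178 and 223 CPM in the tumors. All tumors lay above all glands, and the log2 fold change was 3.76 (SE 0.33, adjusted p = 5.37e-05, by limma). *Gadd45a*, a growth arrest gene that binds the replication clamp, had the smallest value, -0.06 (95% interval -0.51 to 0.40), and its exons overlap a gene on the other strand.

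Targets in apoptosis were upregulated in 3 of 15 cases, with a median log2 fold change of 0.47. *Pmaip1*, which blocks survival proteins at the mitochondrion, went from 22.0, 18.5 and 24.3 CPM in the glands to 78.9, 117 and 163 CPM in the tumors (log2 fold change 2.39, adjusted p = 1.60e-04, by limma). *Tnfrsf23*, a decoy death receptor, had the largest value, 3.26. *Fas*, a death receptor, overlapped between the tissues at 20.3, 18.5 and 17.8 CPM in the glands and 17.3, 19.7 and 17.8 CPM in the tumors, with a log2 fold change of -0.05 (95% interval -0.43 to 0.34). The smallest value, -0.15 (95% interval -1.0 to 0.70), was that of *Steap3*, a metalloreductase. *Apaf1*, the core of the apoptosome, was the other upregulated gene and is named after its values had been seen, with a log2 fold change of 1.22.

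Repair targets were upregulated in 1 of 8 cases. That gene was *Polk*, a translesion polymerase, with a log2 fold change of 1.41 (adjusted p = 1.49e-04, by limma). *Xpc*, which recognizes damage in nucleotide excision repair, stood at 20.7, 21.1 and 25.9 CPM in the glands and at 11.9, 12.3 and 10.8 CPM in the tumors, and like *Sesn1* passed the adjusted p but not the fold change (log2 fold change -0.92, adjusted p = 0.00437, by limma). *Ercc5*, a nuclease of the same repair pathway named after its values had been seen, also passed the adjusted p alone, in the other direction (log2 fold change 0.84, adjusted p = 0.00181, by limma). Targets in metabolism and antioxidant defense were upregulated in 2 of 9 cases. The larger was *Cpt1c*, of the carnitine palmitoyltransferase family, with a log2 fold change of 2.21, and the smaller was *Sesn2*, named after its values had been seen. *Cpt1c* was scarce in the glands, at 0.813, 1.49 and 0.958 CPM, and its log2 fold change ranged from 1.90 with a pseudocount of 1 to 2.62 by DESeq2.

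The sestrins differed in the sign of their log2 fold change. *Sesn2* stood at 4.27, 2.97 and 4.92 CPM in the glands and at 7.63, 9.04 and 17.8 CPM in the tumors (log2 fold change 1.33, adjusted p = 0.0147, by limma). It was not called without tumor T9232 (0.98) or without both glands that held muscle transcripts (1.05). *Sesn3* stood at 56.5, 49.4 and 61.6 CPM in the glands and at 28.7, 40.1 and 40.2 CPM in the tumors (log2 fold change -0.62, adjusted p = 0.0268, by limma), which misses the fold change. *Sesn3* no longer passed the adjusted p without M11035, M9232, T11035 or T11640, or without both glands that held muscle transcripts, and its adjusted p by limma and the other tools ran from 0.0126 to 0.0968 over the alternative settings. The sign was positive for *Sesn2* and negative for *Sesn1* and *Sesn3* under every scaling tried.

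Secreted and matrix targets were upregulated in 5 of 7 cases, with a median log2 fold change of 3.03. *Tgfa*, a ligand of the EGF receptor, led them, from 3.46, 2.31 and 8.07 CPM in the glands to 59.2, 97.4 and 118 CPM in the tumors (log2 fold change 4.28, adjusted p = 9.06e-05, by limma). *Tgfa* came to 3.37 without both glands that held muscle transcripts. *Csf1*, a macrophage growth factor, was the smallest at 0.52 (95% interval -0.03 to 1.06), and came to 0.25 without gland M11035 and 0.16 without both glands that held muscle transcripts. Against the 14.5% of all genes called higher, the share was 66.7% of arrest and 71.4% of secreted targets, 30% of relatives and activators, 22.2% of metabolism, 20% of apoptosis and 12.5% of repair targets. The lists are short, so the last 3 of these shares and the 0 of 6 inhibitors lie within 1 gene of the share of all genes, and differences between lists were not tested. The epithelial, squamous and cell cycle lists were also higher in the tumors, as given above. So were the fibroblast markers *Col1a1* and *Col1a2* (log2 fold changes 4.63 and 3.75). The rest of the 5 fibroblast markers did not pass the adjusted p, and their log2 fold changes ran from -0.23 to 1.19. The part of these lists and markers in the higher arrest and secreted targets was not tested.

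**Figure D3:**
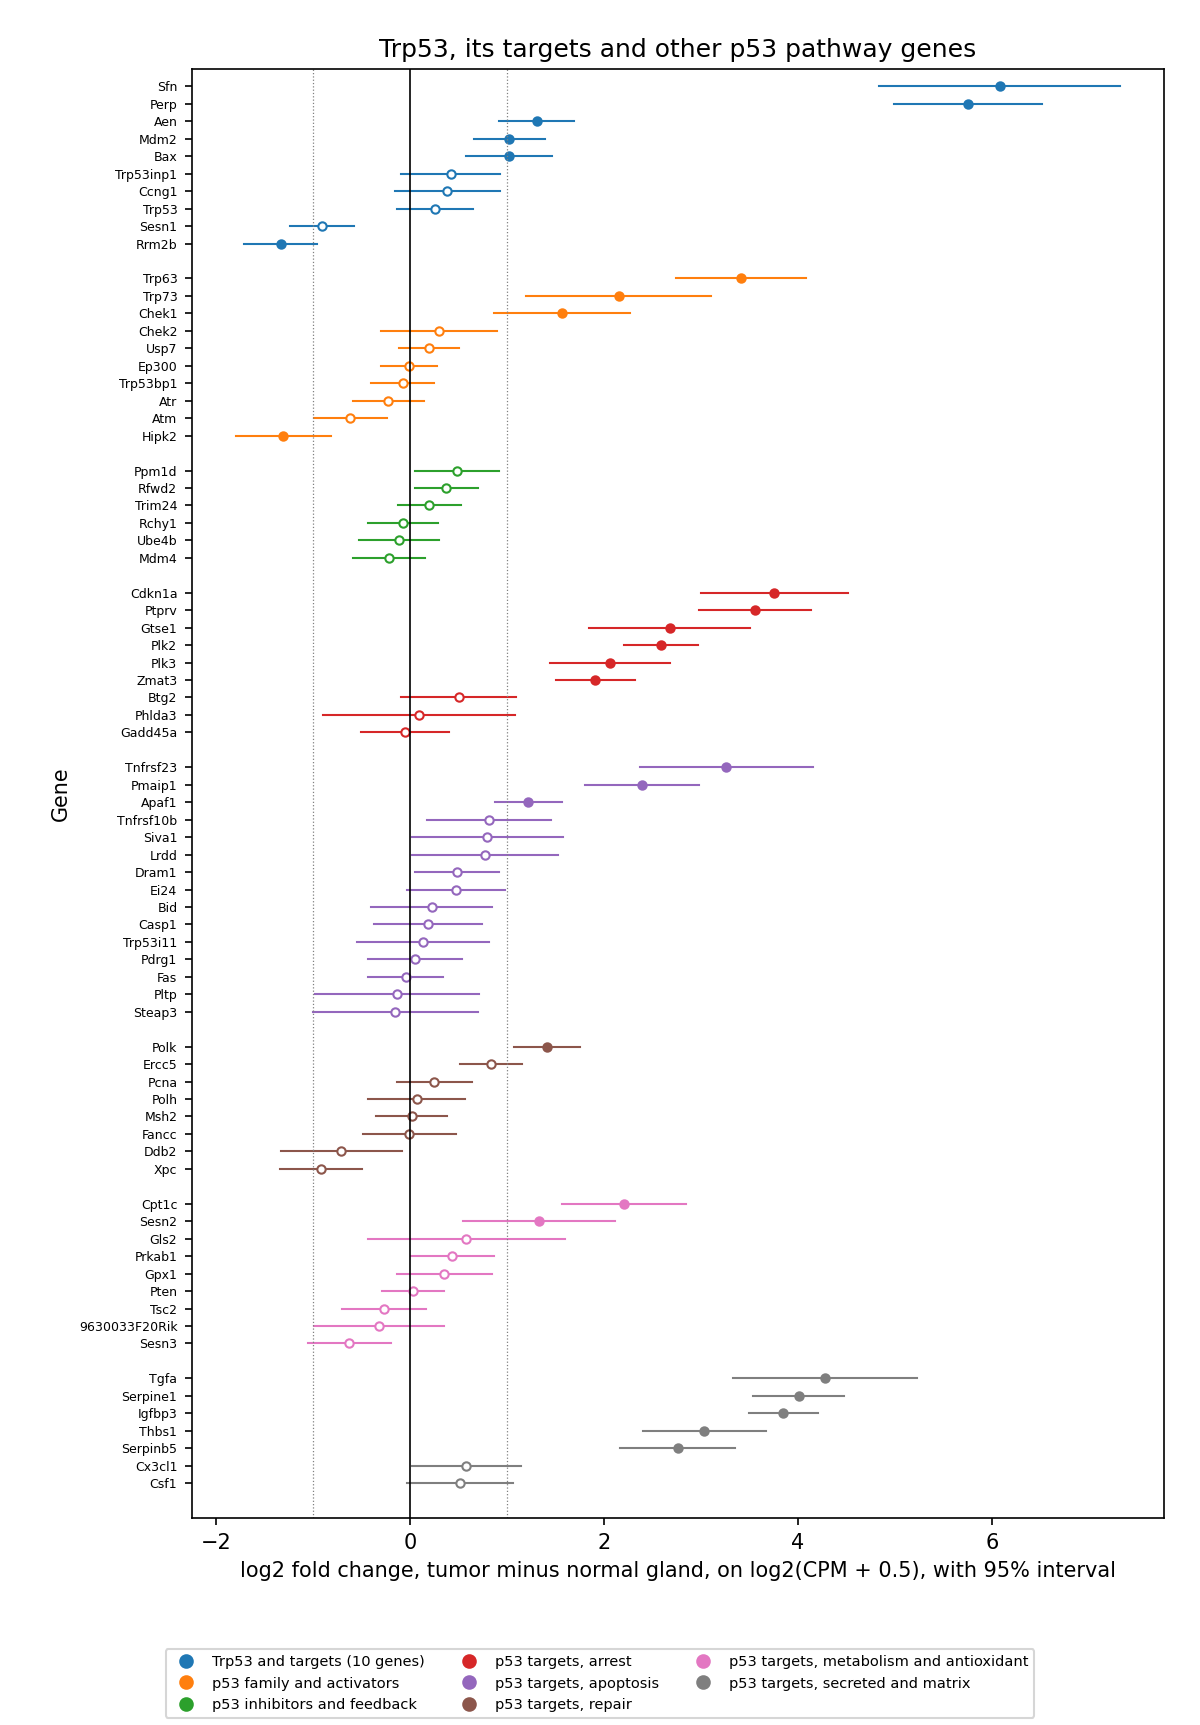
Log2 fold change (tumor minus normal gland, on log2(CPM + 0.5)) with its 95% interval for the 10 genes and 64 other p53 pathway genes, colored by list. Filled points are DEGs, dotted lines mark a log2 fold change of 1 in either direction, and arrest and secreted targets hold 6 and 5 filled points.

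Promoters are shown because p53 acts on its targets by binding DNA, and the half-site is the unit it recognizes. Promoter windows of 300 bases (250 before and 50 after the gene start) from RefSeq, on build GRCm38.p6, were found for 7 of the 10 genes, and *Perp*, *Rrm2b* and *Trp53inp1* had none. The p53 half-site consensus, which reads alike on both strands, was present in a window of 6 of these 7 genes, against 9.55% of all 27025 genes and 8.36% of all 32851 windows. The genes were chosen as *Trp53* and its known targets, a choice that could itself raise this share. The difference between the shares is therefore a description only. The window of *Sfn* does not hold it. Each stretch below runs 5′ to 3′ on the gene's strand, with the match in capitals.
Trp53: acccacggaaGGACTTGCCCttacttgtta
Mdm2: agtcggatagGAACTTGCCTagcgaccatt
Ccng1: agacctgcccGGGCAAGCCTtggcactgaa
Bax: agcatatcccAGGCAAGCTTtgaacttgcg
Aen: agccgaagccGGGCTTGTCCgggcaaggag
Sesn1: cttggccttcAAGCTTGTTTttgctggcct

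Exact matches to mm9 place the stretch of *Trp53* at chr11:69393776-69393805 (plus strand) and that of *Mdm2* at chr10:117147981-117148010 (minus strand). The stretch of *Ccng1* is at chr11:40568954-40568983 (minus strand) and that of *Bax* at chr7:52722450-52722479 (minus strand). The stretch of *Aen* is at chr7:86040813-86040842 (plus strand) and that of *Sesn1*, from the second of its windows, at chr10:41607062-41607091 (plus strand). The genes with a match include *Mdm2*, *Bax* and *Aen*, which were upregulated, *Trp53* and *Ccng1*, which were not called, and *Sesn1*, which was lower. A match to a half-site describes the letters of the window and is neither a binding site nor a cause, and p53 binding was not measured here.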

How the data were processed

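RNA-Seq libraries of 3 tumors and 3 adjacent glands were grouped from the labels. The authors mapped read pairs to mm9, counted fragments per RefSeq gene and removed genes with fewer than 10 fragments over all samples; the submitters' processing notes name CASAVA 1.8.2, TopHat2 2.0.3, HTSeq 0.5.3p9 and edgeR 3.6.1. The authors deposited a normalized expression signal in CPM, fragments divided by edgeR's effective library size. The paper's methods do not say that counting used strand. All values (100% in each library, within 0.01 fragments) were whole multiples of the value of 1 fragment, so fragments were recovered.

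Fragments on genes were 4750989, 6127715 and 7372155 in the glands and 5116883, 7806908 and 6948233 in the tumors, in the order used above. Libraries of the same tissue differed by more than counting noise (chi-square per degree of freedom 13.7 to 55.5). R 4.3.3 and limma 3.58.1 were used for the tests, made on log2(CPM + 0.5), adjusted by Benjamini-Hochberg and first tested on simulated data. Because the values are normalized, edgeR 4.0.16 and DESeq2 1.42.0 on recovered fragments were alternatives. Same-numbered libraries come from 1 mouse; their deviations from the tissue means correlated at 0.107, 0.151 and 0.0168 over 14712 genes. Transcripts were aligned to mm9 with minimap2 2.31-r1302.

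The 10 genes and all lists were chosen with earlier results of these data known. Named were the 10 genes; the largest and smallest log2 fold change of each p53 list; *Trp63*, *Trp73*, *Cdkn2a*, *Cdkn1a*, *Mdm4*, *Bbc3*, *Pmaip1* and *Fas*; the most abundant gene of each marker list and markers listed at 0; and the 3 profiles closest to *Trp53*. *S100a8*, *Retnlg*, *Epcam*, *Krt14*, *Col1a1* and the markers most abundant in the glands or in the tumors alone were named after their values had been seen. Alternatives were another pseudocount, a filter at a mean of 1 CPM, the mouse as a block, other scalings and leaving out each library. Leaving out both glands with muscle transcripts was chosen after seeing the data.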

Additional observations from a re-analysis of the deposited data

How the results depend on the processing

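The count of 4309 DEGs lay between 3774 and 4462 over the other settings and was 3206 without both glands that held muscle transcripts, where the lone gland was assumed to vary like the tumors. With the replicate block (mouse) 4298 genes were called. The 6 of the 10 genes and 21 of the 64 pathway genes called were as many as without it. The block changed no call of a gene whose fold change was followed over the settings. *Atm* and the markers other than *Rrm2* were not followed. edgeR called 4462 and DESeq2 4436 genes on fragments. Of the 10 genes, 4 were called with upper-quartile scaling and without T9232, and 5 with a pseudocount of 1, without M11640 or M9232, and without both muscle glands. Of the 64 pathway genes, 23 were called without M11035, 20 without T9232 and 19 without both muscle glands. *Mdm2* ranged from 0.89 to 1.10 and *Bax* from 0.91 to 1.13. Among the genes whose fold change was followed over these settings, signs turned only for those that were not called. With each library left out in turn, *Gadd45a* ranged from -0.12 (without M9232) to 0.070 (without M11035), *Fas* from -0.098 (without T11640) to 0.0078 (without M11035) and *Steap3* from -0.50 (without T9232) to 0.089 (without M11640), and *Steap3* was also 0.080 without T11035. Without both muscle glands, *Gadd45a* came to 0.076, *Fas* to 0.036 and *Trp53inp1* to -0.051. The cause was not tested. Without both, *Xpc* came to -1.12 and became a DEG. *Ccng1* without T11035 and *Trp53inp1* without M9232 passed the adjusted p but not the fold change. Depth limits *Sfn*, *Trp73* and *Cpt1c*, which had few fragments in the glands.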
